A study of Mus musculus with 36 samples.

Results

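Parathyroid hormone (Pth), chromogranin A (Chga), the transcription factor Gcm2 and the calcium-sensing receptor (Casr) were followed in sorted stromal cells of the mouse thymus. The 4 genes were chosen by the levels of Pth and Chga in the fibroblast arrays, which fell strongly with age, so their fibroblast values are given as a description and were not tested. A gene was read by the probe set that the platform annotation gives to its symbol alone, and with several such probe sets by the one with the highest mean over all arrays. By that rule 3 of the 4 genes, Pth, Chga and Casr, had a value, out of 18193 genes with a value on the array, and all 3 were among the 14495 genes bright enough to be tested. Gcm2 was not analysed here.

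The 36 arrays covered 6 populations sorted by flow cytometry from enzymatically digested thymi: thymic epithelial cells of the cortex (cTEC), those of the medulla in a lo and a hi class (mTEClo and mTEChi), Sirpa- and Sirpa+ dendritic cells (DC), and fibroblasts. Each population was taken from wild-type male C57BL/6J mice that were 1, 3 or 6 months old, with 2 arrays for each of the 18 groups and no treatment in any of them. The labels name a single mouse for each sample and the design text names 2 mice of each age, so samples of different populations may come from the same animals, and p-values measure only the spread between these samples. The RNA was amplified before labelling, and all values are deposited log2 signals, in which a difference of 1 is a 2-fold difference.

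Defining markers of the sorts were checked first. Aire, the regulator of tissue antigens in the medulla, lay between 10.67 and 11.97 in mTEChi and at no more than 9.08 elsewhere. Psmb11, the cortical proteasome subunit, lay at or above 10.18 in cTEC, Itgax at or above 10.42 in both DC populations, and Pdgfra between 8.10 and 11.87 in fibroblasts, with its lowest value in the 6-month replicate 2 array. The epithelial marker Epcam was also bright in Sirpa+ DC, between 9.46 and 11.10. The thymocyte gene Rag1 was bright in the fibroblast arrays, between 10.42 and 12.59. It lay between 6.07 and 10.70 in cTEC, between 7.22 and 9.53 in Sirpa+ DC, and at no more than 8.87 in the remaining populations.

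The parathyroid glands arise from the same pharyngeal pouch as the thymus, and in the mouse small islands of parathyroid tissue can lie next to or inside the thymus. Parathyroid chief cells make parathyroid hormone, which raises blood calcium, and release it from granules that hold chromogranin A. They read blood calcium through the calcium-sensing receptor and depend on Gcm2 for their development. Medullary thymic epithelium also transcribes many genes of other tissues at a low level, part of them under Aire, so that developing T cells meet these antigens.

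The promoters of Pth and Chga are shown because the levels of these genes moved together across arrays, as described further on. They are RefSeq promoter windows of the build GRCm38.p6, printed from 250 bases before to 30 bases after the annotated start, with the matches of the motifs searched in capitals. The Pth window is at chr7:113388544-113388823 on the minus strand and the Chga window at chr12:102554691-102554970 on the plus strand.
Pth: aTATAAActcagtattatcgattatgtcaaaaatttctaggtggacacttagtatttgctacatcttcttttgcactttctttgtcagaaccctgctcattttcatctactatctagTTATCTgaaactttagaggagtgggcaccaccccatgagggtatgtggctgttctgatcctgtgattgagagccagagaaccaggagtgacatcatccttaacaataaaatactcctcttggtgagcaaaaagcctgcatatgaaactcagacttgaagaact
Chga: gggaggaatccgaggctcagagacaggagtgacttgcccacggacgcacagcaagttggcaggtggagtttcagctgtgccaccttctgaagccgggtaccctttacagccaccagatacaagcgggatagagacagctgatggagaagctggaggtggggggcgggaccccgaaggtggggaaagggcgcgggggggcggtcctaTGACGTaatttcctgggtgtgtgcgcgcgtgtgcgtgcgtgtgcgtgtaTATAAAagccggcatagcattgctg
The motifs searched on both strands of the whole 300-base windows were TATAAA (the TATA box core), TGACGT (the core of the cyclic AMP response element), AGATAA (bound by GATA factors, the GATA motif), ATGCGGGT (the binding motif of Gcm proteins) and TGCTGAC (a Maf recognition sequence). None of these motifs overlaps another in the 3 windows. The Pth window held the TATA core at bases 2 to 7 and the GATA motif on the reverse strand at bases 118 to 123. The Chga window held the cyclic AMP core at bases 207 to 212 and the TATA core at bases 256 to 261, and the Casr window held none of the 5. The only motif found in both the Pth and the Chga window was the TATA core. It lay at the upstream end of the Pth window and after the annotated start in the Chga window. Of 32851 mouse promoters of the same length, 13.616% held the TATA core, 11.178% the GATA motif, 7.513% the cyclic AMP core, 4.673% the Maf sequence and 0.256% the Gcm motif. These matches are a description of letters and not of bound sites.

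Pth, the hormone itself, had the widest range of the 3 genes. Its level ran from 3.65 to 11.27 over the 36 arrays, a 196-fold range, and 15 of the 36 arrays lay above the median of all values, 5.66. In cTEC Pth was 3.83 and 7.68 at 1 month, 3.88 and 10.12 at 3 months, and 7.84 and 10.38 at 6 months (replicates 1 and 2 in turn). The second array was thus the higher at each age, by 3.85, 6.24 and 2.54, and 2 of the 6 cTEC arrays sat at the level of the DC arrays. In mTEClo Pth was 4.17 and 4.38 at 1 month, 4.07 and 3.85 at 3 months, and 3.97 and 8.75 at 6 months, so that 5 arrays were low and 1 was high.

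In mTEChi Pth was 6.07 and 6.78 at 1 month, 6.78 and 6.43 at 3 months, and 6.79 and 6.65 at 6 months. All 6 arrays lay within 0.71 of each other and above the median of all values, which made mTEChi the population with the steadiest Pth signal among those that had one. In Sirpa- DC Pth was 4.19 and 4.20 at 1 month, 4.29 and 3.65 at 3 months, and 4.02 and 6.72 at 6 months. Again 1 array, replicate 2 at 6 months, stood apart from the other 5. In Sirpa+ DC Pth was 4.26 and 3.83, then 3.97 and 4.02, then 3.90 and 3.86, and no array rose above 4.26.

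Chga, the acidic protein of hormone granules, is made by many endocrine and neuroendocrine cells besides those of the parathyroid. Its level ran from 4.36 to 9.79, a 43.1-fold range, with 22 of 36 arrays above the median of all values. In cTEC Chga was 4.99 and 7.56 at 1 month, 6.25 and 9.58 at 3 months, and 7.46 and 8.32 at 6 months. As for Pth, the second array was the higher at each age. In mTEClo Chga was 7.13 and 6.93, then 7.47 and 7.47, then 6.73 and 8.70, and the single highest array was the one in which Pth was high. In mTEChi Chga was 8.77 and 8.10, then 7.91 and 8.61, then 8.42 and 8.66, above all but 1 of the mTEClo arrays.

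Both DC populations were low for Chga. In Sirpa- DC it was 4.87 and 4.82 at 1 month, 4.44 and 4.36 at 3 months, and 4.82 and 5.93 at 6 months. The 5.93 came from the array with the high Pth value. In Sirpa+ DC Chga was 4.96 and 5.36, then 4.46 and 5.06, then 4.83 and 5.07, always below the median of all values.

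Casr, the receptor through which parathyroid cells sense calcium, spread over much less, from 5.59 to 8.28 (6.48-fold), and 35 of 36 arrays lay above the median of all values. In mTEClo Casr was 7.48 and 8.06 at 1 month, 7.90 and 7.91 at 3 months, and 7.21 and 7.16 at 6 months. In mTEChi it was 8.11 and 8.28, then 7.78 and 7.42, then 6.36 and 6.92. These 2 populations held the brightest Casr arrays, and in both the 6-month arrays were the lowest. In cTEC Casr was 6.53 and 6.58, then 6.13 and 7.09, then 6.15 and 6.32. In Sirpa- DC it was 7.25 and 6.95, then 7.06 and 6.32, then 6.42 and 6.72, and in Sirpa+ DC 6.43 and 6.73, then 6.98 and 6.60, then 6.42 and 6.33. In the arrays that stood apart for Pth, Casr differed from the other array of the group by -0.06 in mTEClo and 0.30 in Sirpa- DC, both at 6 months. In cTEC at 3 months, where Pth differed most between the arrays of a group, Casr was higher by 0.96 in replicate 2. A second probe set annotated to Casr was dim in every array, with a mean of 4.30 against 6.85, and did not follow the first, so every Casr difference given here rests on 1 probe set.

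**Figure D1:**
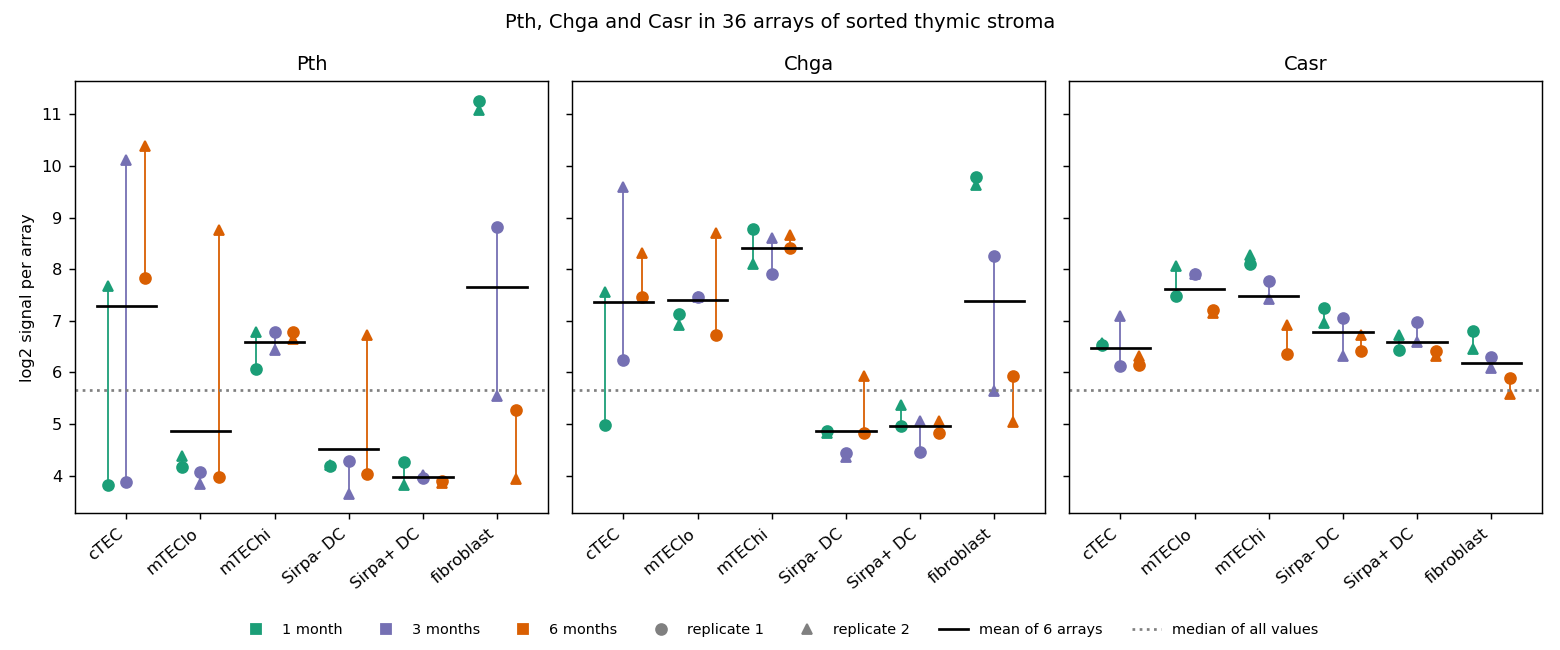
The log2 signal of Pth, Chga and Casr in each of the 36 arrays, by population on the horizontal axis, with colour for age, circles and triangles for replicates 1 and 2, lines joining the arrays of a group, bars for the mean of 6 arrays and a dotted line at the median of all values. Pth runs from 3.65 to 11.27 and Casr only from 5.59 to 8.28, and the long joining lines of Pth and Chga lie in cTEC, in mTEClo and Sirpa- DC at 6 months, and in fibroblasts at 3 and 6 months.

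In the fibroblast arrays, on which the genes were picked, Pth was 11.27 and 11.08 at 1 month, 8.82 and 5.54 at 3 months, and 5.27 and 3.94 at 6 months. The group means were 11.17, 7.18 and 4.60, so that Pth was lower by 6.57 on the log2 scale, or 95.1-fold, at 6 months than at 1 month. The 1-month fibroblast arrays held the 2 highest Pth values of the whole set, and the lower 6-month array was no higher than the DC arrays. Chga was 9.79 and 9.63, then 8.25 and 5.63, then 5.93 and 5.04, with means of 9.71, 6.94 and 5.48. Its 6-month mean was 18.7-fold below its 1-month mean. Casr was 6.81 and 6.45, then 6.31 and 6.09, then 5.90 and 5.59, with a 6-month mean 1.85-fold below the 1-month mean. For all 3 genes the arrays of 3 and of 6 months lay below both arrays of 1 month. The share of all genes with this order was not counted, so nothing is read from it. The 3-month means depended on which array was kept. The difference of Pth from 1 month was -4.00 with both arrays, -5.64 without replicate 1 and -2.36 without replicate 2, and that of Chga was -2.77, -4.08 and -1.46. In bulk sorts, fewer cells of a type and less RNA per cell cannot be told apart.

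Much else moved in the same arrays. Of the 14495 genes tested, 20.4% were called between 3 months and 1 month and 36.2% between 6 months and 1 month, with 10.4% and 20.4% called lower. These counts depended on single arrays. Without replicate 1 of fibroblasts at 1 month, 1078 genes other than the members were called at 3 months and 2306 at 6 months. Without replicate 2 at 3 months 1060 were called at that age, and without replicate 2 at 6 months 2145 were. All 3 members with a value were lower, and nothing is read from that count because the same contrast chose them. The mean over the fibroblast markers (among them Pdgfra, Col1a1, Dcn and Lum) lay between 12.78 and 12.93 at 1 month, 11.54 and 12.12 at 3 months, and 9.52 and 11.91 at 6 months, with 7 of 8 markers called lower at 6 months. The mean over mural cell markers, those of pericytes and smooth muscle, lay between 10.43 and 10.95, then 9.42 and 10.11, then 9.10 and 9.92, with 6 of 7 called lower. Thymocyte markers went the other way, from between 8.52 and 10.08 at 1 month to between 10.55 and 10.84 at 6 months, with 5 of 9 called higher. The 3′ minus 5′ signal of the Gapdh and Actb control probe sets, a measure of RNA length, lay between 2.37 and 3.15 at 1 month and between 1.72 and 1.86 at 6 months. The part of each of these in the levels of Pth and Chga was not tested.

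Markers of the neighbouring thyroid did not show in the fibroblast arrays. The mean over the thyroid follicle genes was 4.59 to 4.76 in all 6 arrays, and thyroglobulin (Tg), its most abundant product, was at 4.07 to 4.71 where Pth ran from 3.94 to 11.27. Of 4 thyroid genes tested and 5 genes of sympathetic and chromaffin cells, which also make Chga, none was called at 6 months against 1 month. Among the other endocrine granule genes, Chgb, the second chromogranin, stayed between 4.51 and 4.95 in fibroblast arrays, Scg2 between 4.06 and 4.62 and Scg5 between 3.38 and 4.31, and the endocrine transcription factor Insm1 between 3.24 and 3.54. The brightest Chga signals in fibroblast arrays thus came with none of these 3 granule proteins above the median of all values. Cpe, a processing enzyme of hormone granules, was bright in all 6, at 12.40 and 12.05 at 1 month, 11.86 and 11.20 at 3 months, and 11.59 and 9.44 at 6 months.

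**Figure D2:**
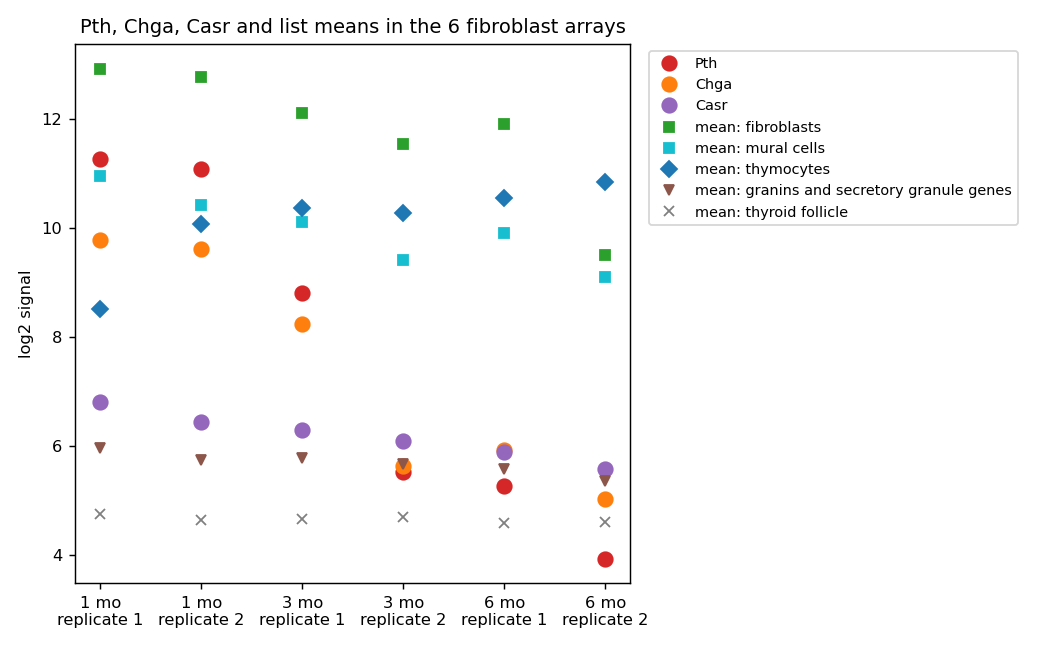
The log2 signals of Pth, Chga and Casr (circles) and the mean log2 signal of 5 gene lists (other symbols) in the 6 fibroblast arrays, in the order of age and replicate. Pth falls from 11.27 and 11.08 to 5.27 and 3.94 while the thyroid mean stays between 4.59 and 4.76, the fibroblast mean falls from 12.78 to 12.93 down to 9.52 to 11.91, and the thymocyte mean is higher at 6 months than at 1 month.

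Genes of parathyroid biology other than the members were counted in the same contrast from lists. Of all genes tested, 36.2% were called at 6 months against 1 month in fibroblasts, and 20.4% were called lower. Of 12 tested genes of calcium and phosphate control, 5 were called lower and 1 higher at 6 months. The cyclin Ccnd1, whose rearrangement next to the PTH gene drives some parathyroid tumours, fell by 3.23, the FGF23 receptor Fgfr1 by 1.57, the G-protein subunit Gnaq, which couples Casr, by 1.29 and the vitamin D receptor's partner Rxra by 1.25, while the cell cycle inhibitor Cdkn1b rose by 1.75. The parathyroid hormone receptor Pth1r fell by 1.78, the only call among 3 tested genes of the hormone family. Among 6 tested genes of pouch and parathyroid development, Gata3, which acts upstream of Gcm2 and is also a thymocyte gene, rose by 1.72 and Hoxa3 fell by 0.73. Of 14 granin and granule genes 5 were called lower, led by the processing enzymes and vesicle proteins Cpe (-1.71), Rab3a (-1.28) and Pam (-1.08), and none higher. The median change was -0.26 for the calcium list and -0.30 for the granule list, against -0.07 for all genes.

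The first comparison that the choice of genes did not use asked whether the members differ between thymic epithelium and DC. Pth was higher in the mean of the 3 epithelial populations than in the mean of both DC populations, at 6.24 against 4.24 (difference 2.00 ± 0.55 SE, adjusted p = 0.00203 by limma). Chga was higher by 2.81 ± 0.31, at 7.72 against 4.92 (7.01-fold, adjusted p = 1.01e-08). Casr differed by 0.50 ± 0.10 (adjusted p = 0.000108), which is under the 2-fold needed for a call. So 2 of the 3 members were called, where 24.5% of all genes tested were called and 15.9% were called higher in epithelium. An exact or resampled permutation of the arrays, adjusted over 12 tests, gave 0.0126 for Pth, 0.00024 for Chga and 0.0749 for Casr. The value for Chga came from a p of 2e-05, the smallest that 100000 resamples can give. This permutation exchanges arrays of different populations and ages as if they were alike. Arrays overlapped for Pth, since 2 cTEC and 5 mTEClo arrays lay at or below 4.38. For Chga, every mTEClo and mTEChi array lay above every DC array. The cTEC arrays overlapped with DC, since replicate 1 at 1 month was at 4.99 and the highest DC array at 5.93. Of all genes, 41% did not overlap, in one direction or the other, between mTEClo and Sirpa- DC, 36.2% between mTEClo and Sirpa+ DC, 42.2% between mTEChi and Sirpa- DC and 37.1% between mTEChi and Sirpa+ DC.

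Other granule genes were also higher in epithelium than in DC. Of 14 tested, 7 were called higher and none lower, with Scg5 at 3.98, Cadps at 3.78, Cpe at 2.88 and Chgb at 2.07 above the DC mean, and the list's median was 1.18 against 0.01 for all genes. Genes of pouch development had 4 of 6 called higher, with Eya1 and Pax1, which pattern the pouch and stay on in thymic epithelium, at 4.88 and 4.30. The hormone family had no call among 3 genes. Of 12 calcium genes the vitamin D receptor Vdr and the calcium buffer Calb1 were higher, by 2.02 and 1.96, and Ccnd1 was lower, by 1.60.

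Within the epithelium the members parted. Casr was higher in mTEC, taken as the mean of mTEClo and mTEChi, than in cTEC by 1.09 ± 0.14, at 7.55 against 6.47 (2.12-fold, adjusted p = 3.46e-07 by limma). Pth had the opposite sign, -1.56 ± 0.73 (adjusted p = 0.0781), and Chga differed by 0.55 ± 0.42 (adjusted p = 0.28), neither of which was called. Thus 1 of 3 members was called against 13.6% of all genes, with 8.24% higher in mTEC. The Casr difference fell just under 2-fold, to 0.93, without replicate 1 of cTEC at 3 months, and to 0.00 on the dim probe set. The Pth difference was called without replicate 1 of cTEC at 1 month (-2.20, adjusted p = 0.0207), at 3 months (-2.60, adjusted p = 0.00219) or at 6 months (-1.99, adjusted p = 0.0454), and without replicate 2 of mTEClo at 6 months (-1.96, adjusted p = 0.0195), and it was -0.52 without replicate 2 of cTEC at 3 months. That array also moved the Chga difference to 1.10 (adjusted p = 0.0204) when left out, while leaving out its partner gave -0.01.

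Between mTEChi and mTEClo, Pth differed by 1.72 ± 0.85 (3.29-fold, adjusted p = 0.0893 by limma) and Chga by 1.01 ± 0.48 (2.01-fold, adjusted p = 0.0781), both with mTEChi the higher, and Casr by -0.14 ± 0.16 (adjusted p = 0.479). No member was called by limma, where 19.6% of all genes were, and 1 of the 3, Chga, had an unadjusted p under 0.05. Replicate 2 of mTEClo at 6 months decided both. Without it the difference was 2.52 for Pth (adjusted p = 0.0134) and 1.34 for Chga (adjusted p = 0.0276), and without replicate 1 of the same group it was 0.92 and 0.68. Leaving out either 3-month cTEC array, which removes a large replicate gap from the shared spread, left the differences at 1.72 and 1.01 with adjusted p-values of 0.0379 and 0.0366.

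Listed endocrine genes also differed between these populations. Of 5 tested endocrine regulators and peptide hormones, 4 were called higher in mTEChi, namely Calcb by 3.76, Resp18 by 3.21, Insm1 by 2.53 and Gast by 1.08, with a list median of 2.53 against -0.04 for all genes. Of 14 granule genes 3 were higher, Cadps by 3.31, Vgf by 2.83 and Cpe by 1.18, a share near the 19.6% of all genes called. Pth1r, the receptor, was higher by 1.37, and Calb1 by 4.50. Aire itself separates the populations, as the marker check shows.

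Between the DC populations limma called none of the 3 members and none had an unadjusted p under 0.05, where 5.37% of all genes were called. The difference of Sirpa+ from Sirpa- DC was -0.54 ± 0.85 for Pth (adjusted p = 0.761), 0.08 ± 0.48 for Chga (adjusted p = 0.953) and -0.21 ± 0.16 for Casr (adjusted p = 0.445).

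Ordered by the mean of 6 arrays, Pth stood at 7.65 ± 3.17 (SD, n = 6) in fibroblasts, 7.29 ± 2.88 in cTEC, 6.58 ± 0.29 in mTEChi, 4.86 ± 1.91 in mTEClo, 4.51 ± 1.11 in Sirpa- DC and 3.97 ± 0.16 in Sirpa+ DC. No neighbours in this order outside fibroblasts differed by the test, with adjusted p = 0.491 for mTEChi against cTEC and 0.739 for Sirpa- DC against mTEClo, pairs in which 23.8% and 26.1% of genes were called. Within the epithelium the only pair called for Pth was mTEClo against cTEC, which are not neighbours. Pth was lower in mTEClo by 2.42 ± 0.85 (adjusted p = 0.033 by limma), with overlapping arrays, where 8.01% of genes were called. Chga stood at 8.41 ± 0.34 in mTEChi, 7.40 ± 0.70 in mTEClo, 7.38 ± 2.11 in fibroblasts, 7.36 ± 1.60 in cTEC, 4.96 ± 0.30 in Sirpa+ DC and 4.88 ± 0.56 in Sirpa- DC. Outside fibroblasts the only step between neighbours that was called was from cTEC to Sirpa+ DC (-2.40 ± 0.48, adjusted p = 0.000109), a pair in which 26.2% of genes were called. Chga in mTEClo and cTEC differed by 0.04 ± 0.48 (adjusted p = 0.96), where 8.01% of genes were called. Casr stood at 7.62 ± 0.39 in mTEClo, 7.48 ± 0.73 in mTEChi, 6.79 ± 0.37 in Sirpa- DC, 6.58 ± 0.24 in Sirpa+ DC, 6.47 ± 0.36 in cTEC and 6.19 ± 0.43 in fibroblasts. Its steps between neighbours were each under 2-fold and not called. The largest, from mTEChi to Sirpa- DC, was -0.69 ± 0.16 (adjusted p = 0.00051), in a pair with 28.5% of genes called. Fibroblast places in these orders are a description.

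The means of Pth hide spreads that differ between populations. The fitted residual SD over the 18 groups was 1.70 for Pth, and only 2 of 14494 other genes had a larger one. It was 0.96 for Chga, above that of 99.87% of genes, and 0.29 for Casr, above that of 71.34%. The tests use 1 spread for all groups, so for Pth they set the steady mTEChi and Sirpa+ DC arrays against a spread taken largely from cTEC, mTEClo, Sirpa- DC and fibroblasts.

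The levels of Pth and Chga were correlated across arrays. Over 36 arrays Chga was the gene most like Pth among 14494, with a Pearson r of 0.81 (Spearman rho 0.74), and it was again the most like over the 30 arrays without fibroblasts (r = 0.76). These are descriptions over arrays that share populations, and the fibroblast arrays chose both genes. Next to Pth came Srpx2 (r = 0.73), Selenom and Aldh1a1 (both r = 0.71), of which Srpx2 fell to rank 266 without fibroblasts and Aldh1a1 to rank 22. The genes most like Chga were Adh1, Tgfb2, Sntb1 and Sorbs2, at r = 0.87 each, and those most like Casr were Dner (0.84), Slc4a11 (0.81) and Atp6v1c2 (0.81), which kept ranks 1 to 3 without fibroblasts.

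**Figure D3:**
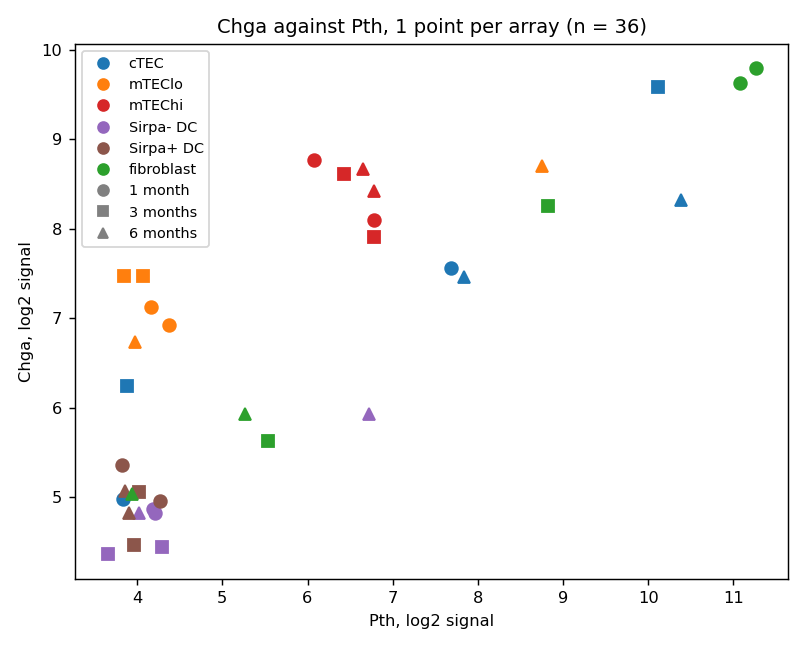
The log2 signal of Chga against that of Pth in each of the 36 arrays, with colour for population and symbol for age. The arrays with the highest Pth have high Chga (r = 0.81 over all arrays), while 5 mTEClo arrays have Chga between 6.73 and 7.47 with Pth at or below 4.38, and the mTEChi arrays form a group of their own.

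Within a population the pairing of the genes differed. Over the 6 arrays of each, Pth and Chga correlated at 0.93 in cTEC, 0.94 in Sirpa- DC and 0.89 in mTEClo, the latter 2 carried by 1 array each. The 0.996 in fibroblasts is no support for a pairing, because both genes were chosen for their fall in those arrays. In mTEChi the correlation was -0.73 and in Sirpa+ DC -0.23, over ranges of Pth of less than 1 on the log2 scale. Chga was also high in mTEClo arrays with Pth at the level of DC, so high Chga did not require high Pth.

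The gap between the 2 arrays of a group uses neither population nor age. From replicate 1 to replicate 2, Pth differed by more than 2 in magnitude in 6 of 18 groups, and in all 6 Chga differed in the same direction. Over all groups, most of them with small gaps, Chga shared the direction of Pth in 10 of 18, and in 7 of 15 without fibroblasts. Casr shared it in 12 of 18 and in 9 of 15. The share of all genes with a shared direction was not counted. The gaps were 3.85 and 2.57 (Pth and Chga) in cTEC at 1 month, 6.24 and 3.34 at 3 months and 2.54 and 0.85 at 6 months. They were 4.78 and 1.97 in mTEClo at 6 months, 2.70 and 1.11 in Sirpa- DC at 6 months, and -3.28 and -2.62 in fibroblasts at 3 months. Casr differed by 0.05, 0.96 and 0.17 in cTEC at 1, 3 and 6 months. In mTEClo and Sirpa- DC at 6 months and fibroblasts at 3 months it differed by -0.06, 0.30 and -0.22. Chga ranked first of 14494 genes by the correlation of its gaps with those of Pth, at r = 0.92 over 18 groups (Spearman rho 0.68) and 0.89 over the 15 groups without fibroblasts (rho 0.58), where Casr ranked 254 (r = 0.52) and 838 (r = 0.47). At 6 months the higher Pth array was replicate 2 in cTEC, mTEClo and Sirpa- DC and replicate 1 in fibroblasts. Whether replicate numbers mark the same mouse is not stated.

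**Figure D4:**
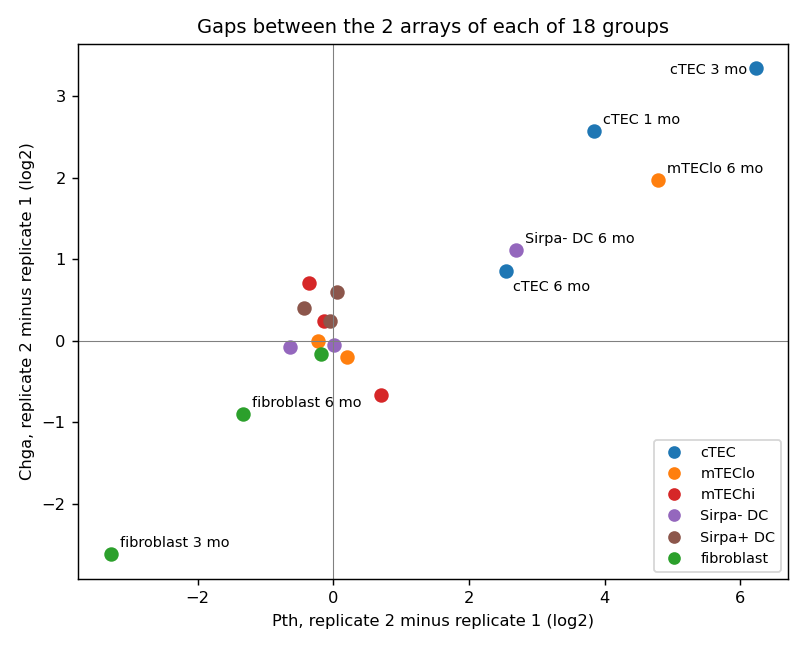
The difference between replicate 2 and replicate 1 in log2 signal, Chga against Pth, for each of the 18 groups, coloured by population, with groups named where Pth differs by more than 1. The large gaps lie along 1 diagonal, from -3.28 and -2.62 in fibroblasts at 3 months to 6.24 and 3.34 in cTEC at 3 months.

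The lists were set beside these gaps, with no test. In the 6 cTEC arrays, where Pth ran from 3.83 to 10.38, the mean over fibroblast markers stayed between 6.88 and 7.56, that over thyroid genes between 4.85 and 5.10 and that over the other granule genes between 5.69 and 6.12. The thymocyte mean ran from 6.35 to 8.54 and was the higher in replicate 2 at 3 and 6 months and in replicate 1 at 1 month. The mean over endocrine regulators and hormones was the higher in replicate 2 at each age, as Pth was. It was 4.58 and 5.50 at 1 month, 4.45 and 4.61 at 3 months, and 4.48 and 4.63 at 6 months. The means over adipocyte genes and over genes of pouch and parathyroid development were also the higher in replicate 2 at each age. This order was thus not particular to the endocrine list. In mTEClo at 6 months the thyroid mean was 5.44 and 5.53, the granule mean 6.32 and 6.80, the mean over endocrine regulators and hormones 5.29 and 5.85 and that over adipocyte genes 4.85 and 5.30 in replicates 1 and 2. In Sirpa- DC at 6 months the thyroid mean was 4.84 and 4.80, the granule mean 5.03 and 5.08 and the endocrine mean 4.93 and 4.77. The part of these in the gaps was not tested. The arrays' medians stayed within 5.61 and 5.75.

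The effect of age outside fibroblasts was tested over the mean of the other 5 populations. From 1 to 3 months none of the members was called or had an unadjusted p under 0.05, at 0.17 ± 0.66 for Pth, 0.21 ± 0.37 for Chga and -0.12 ± 0.12 for Casr (adjusted p = 0.93, 0.816 and 0.652 by limma), where 3.82% of genes were called. Without replicate 1 of cTEC at 1 month the Pth value was -0.22, and without replicate 2 of cTEC at 3 months it was -0.46. From 1 to 6 months Casr fell by 0.64 ± 0.12, from 7.24 to 6.60 (1.56-fold, adjusted p = 0.000603), the only member called, where 25.9% of genes were called and 14.4% were called lower. Pth differed by 1.35 ± 0.66 (adjusted p = 0.131) and Chga by 0.55 ± 0.37 (adjusted p = 0.289), both with the sign opposite to that in fibroblasts. Without replicate 1 of mTEClo at 6 months Pth differed by 1.83 (adjusted p = 0.0378).

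Casr was the only member for which both 6-month arrays lay below both 1-month arrays in each of the 5 populations. This order held for 2.08% of all genes tested. In Sirpa+ DC the margin was narrow, with 6.4205 at 6 months against 6.4295 at 1 month. The change there was 0.08 on the mean of both probe sets and 0.36 on the dim one. The 3′ minus 5′ control signal was also lower in both 6-month arrays than in both 1-month arrays in each of the 5. In mTEChi that signal was 2.11 and 1.91 at 1 month and 1.84 and 1.86 at 6 months. In cTEC it was 2.63 and 2.43, then 1.96 and 2.04. Its part in the fall of Casr was not tested. The change of Casr from 1 to 6 months was -1.55 ± 0.28 in mTEChi (adjusted p = 0.00105), -0.59 in mTEClo, -0.53 in Sirpa- DC, -0.32 in cTEC and -0.21 in Sirpa+ DC, and only the first was called. In mTEChi 9.51% of genes were called and 3.34% were called lower. With arrays weighted by their quality the change in mTEChi was the same, with an adjusted p of 0.0669, and on the dim probe set it was 0.31. The change in mTEChi was larger than the mean change in the other 4 populations by 1.14 on the log2 scale (-1.14 ± 0.31, adjusted p = 0.0398), 1 of 30 such differences computed after the values were seen, where 3.97% of genes were called. Leaving out any 1 of 13 arrays, among them each of the 4 mTEChi arrays of 1 and 6 months, put its adjusted p between 0.0506 and 0.175. The call was also lost with array weights (adjusted p = 0.292) and on the mean of both probe sets (-0.47, adjusted p = 0.201).

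For Pth and Chga no change with age was called within any of the 5 populations. The largest was that of Pth in cTEC, 3.36 ± 1.47 from 1 to 6 months (adjusted p = 0.191), where 6.45% of genes were called. In mTEClo Pth differed by 2.09 ± 1.47 (adjusted p = 0.459), which became -0.30 without replicate 2 at 6 months, and in Sirpa- DC by 1.18 ± 1.47 (adjusted p = 0.841), which became -0.17 without replicate 2 at 6 months. In mTEChi, where Pth was steady, it differed by 0.29 (adjusted p = 0.93). Chga in cTEC differed by 1.64 ± 0.83 at 3 months and 1.62 ± 0.83 at 6 months (adjusted p = 0.277 and 0.287), and the first was called, at 3.31 (adjusted p = 0.0474), without replicate 1 at 3 months. The share of all genes called at 6 months was 6.42% in mTEClo, 0.904% in Sirpa- DC and 2.06% in Sirpa+ DC. At 3 months it was 5.4% in cTEC, 1.77% in mTEClo, 0.0345% in Sirpa- DC and 0.331% in Sirpa+ DC. In mTEChi at 3 months limma called 0 genes (0%), with 385 at an unadjusted p under 0.05, among them Casr (-0.60 ± 0.28).

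**Figure D5:**
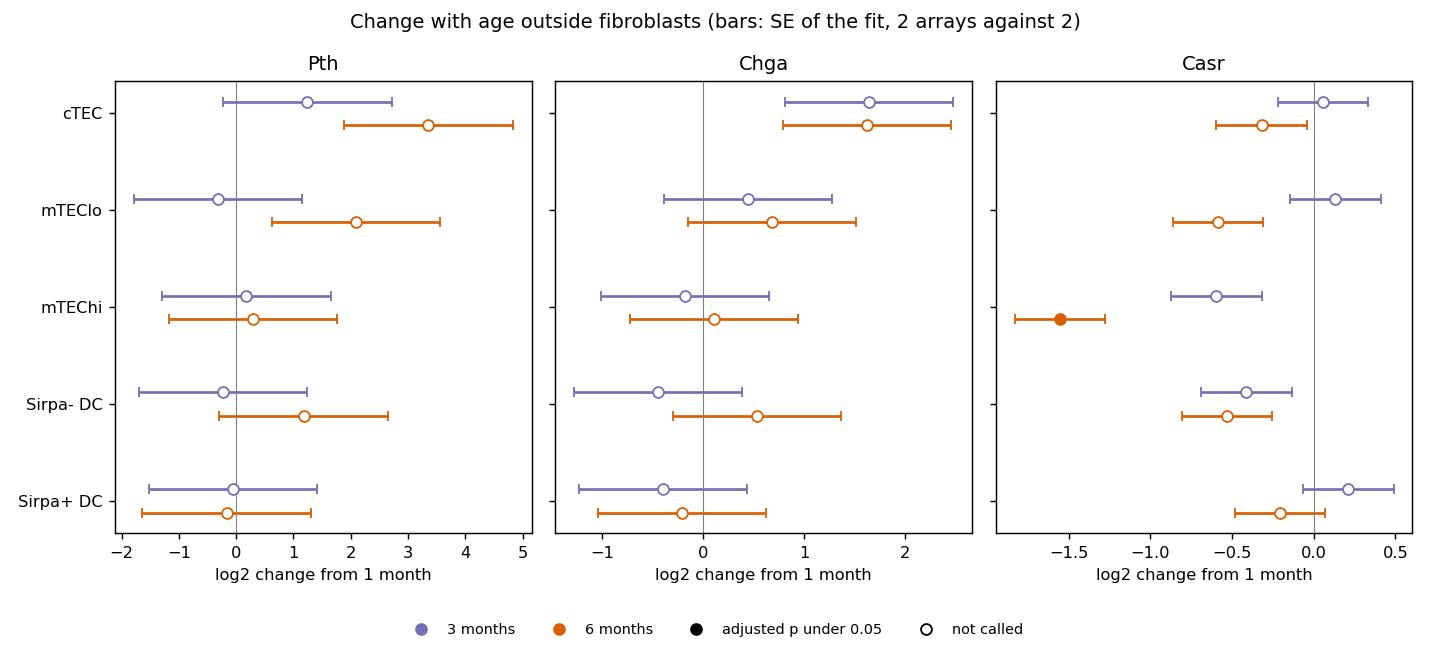
The log2 change of Pth, Chga and Casr from 1 month to 3 months (purple) and to 6 months (orange) in the 5 populations other than fibroblasts, with bars for the SE of the fit and filled points for an adjusted p under 0.05. Only the change of Casr in mTEChi at 6 months, -1.55, is filled, and the bars of Pth, 1.47 to each side, are longer than most of its changes.

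Lists of related genes were counted in the same contrast over the 5 populations, where 25.9% of all genes were called. Of 12 calcium genes tested, 3 were called higher at 6 months than at 1 month (Cdkn1b by 0.58, Ap2s1 by 0.41 and Vdr by 0.34) and Calb1 fell by 0.46. Of 14 granule genes, Scg2 rose by 0.44 and 4 fell, among them Cadps by 1.05 and Cpe by 0.99. Of 5 endocrine genes, Calcb fell by 1.48 and Insm1 by 1.07. The medians of the 3 lists, 0.08, -0.10 and -0.15, stood beside -0.04 for all genes.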

How the data were processed

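RNA of 36 sorted samples was measured on Affymetrix whole-genome mouse arrays. Per the design text, the raw arrays were normalised in Gene Expression Commons. GCRMA is named by the submitters' processing notes, and its version was not given in the sources used here. Per probe set, the authors deposited log2 signals. The log base is not stated and was read from their range, 2.62 to 14.58. They were used with no further scaling.

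Of 45101 probe sets, 34945 had 1 gene symbol in the platform annotation, 932 had several, 9160 had none and 64 were controls. The probe set with the highest mean represented each of 18193 genes. The 14495 genes above the pooled median, 5.66, in at least 2 arrays were tested. A linear model with 18 group means and 18 residual degrees of freedom was fitted with limma 3.58.1 in R 4.3.3, moderated with an intensity trend. All p-values are two-sided and were adjusted by Benjamini-Hochberg over every gene tested. A call needed an adjusted p under 0.05 and, between populations, a 2-fold difference. On simulated data of the same size, the fit recovered 99 of 100 differences of 1.5 log2 between mTEChi and mTEClo and 93 of 100 between cTEC at 6 and 1 month, with 9 false calls in the latter. Pth has a larger spread than nearly all the genes simulated.

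Named genes are the members, called genes of lists (up to 4 with the largest change) and defining genes, and the genes whose levels correlated best with each member. Members, lists and tests were chosen with earlier results of these data known. Added after the values were seen were a permutation test over arrays and the comparison of age changes between populations. Alternatives covered probe sets, scaling, filters, variance models, replicate blocks and each array left out. The number of arrays limits the precision.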

Additional observations from a re-analysis of the deposited data

Results flagged for a closer look

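In 3 of the 18 sets of 6 arrays that were checked (3 genes in 6 populations), 1 array stood further from the rest than Dixon's 95% limit allows. About 1 in 20 sets would pass that limit if each held independent draws from 1 normal distribution. The sets here mix 3 ages and share arrays, so the number flagged was not tested against chance. Pth in mTEClo was 8.75 in replicate 2 at 6 months, with the other 5 arrays at or below 4.38. Chga in this mTEClo array was 8.70 and fell just under the limit, with a gap of 0.6249 of the range. Pth in Sirpa- DC was 6.72 in replicate 2 at 6 months, with the other 5 at or below 4.29. Chga in Sirpa- DC was 5.93 in that same array, with the other 5 at or below 4.87.

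The change of Casr from 1 to 6 months differed between populations by a test of the difference itself. In mTEChi it was -1.55 and in the mean of the other 4 populations -0.41, a difference of -1.14 ± 0.31 (adjusted p = 0.0398 by limma, 1 of 30 such differences). This comparison was chosen after the values were seen. The call was lost with array weights (adjusted p = 0.292), on the mean of both probe sets (-0.47, adjusted p = 0.201), on the dim probe set (0.20) and without any 1 of 13 arrays (adjusted p between 0.0506 and 0.175).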

How the results depend on the processing

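Of 569 values of the 3 genes under other settings, 548 kept their direction and their side of the threshold, as did 1919 of 1980 with 1 array left out. Pth and Chga in epithelium against DC and Casr over 5 populations from 1 to 6 months were among those whose call held in every left-out array.

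Most exceptions were Casr on its dim probe set: 0.00 in mTEC against cTEC, -0.12 in epithelium against DC, 0.07 and 0.15 over 5 populations at 3 and 6 months, 0.19 and 0.31 in mTEChi at 3 and 6 months, 0.09 and -0.16 in Sirpa- and Sirpa+ DC at 3 months, 0.26 and 0.36 in mTEClo and Sirpa+ DC at 6 months, 0.28 in Sirpa- DC against mTEChi, and 0.20 for the excess change in mTEChi. The mean of both probe sets gave 0.55 in mTEC against cTEC and 0.08 in Sirpa+ DC at 6 months, and -0.47 (adjusted p = 0.201) for the excess change in mTEChi.

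Equal array medians moved groups by -0.23 to 0.24, and fibroblasts at 6 against 1 month by 0.26. They gave 1.00 for Casr in mTEC against cTEC, just under 2-fold, and -0.01 for Chga in Sirpa+ against Sirpa- DC. Quantile normalization gave 1.12 for Chga in mTEChi against mTEClo (adjusted p = 0.0463; range over settings 0.0463 to 0.155) and -0.01 for Chga in mTEClo against cTEC. Array weights left 0 members called within populations by age (limma) and 3170 other genes called in fibroblasts at 6 months. The cause was not tested.

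With 1 array left out, the lone array of a group being assumed to vary like the others, values ranged as follows. Between populations, Pth spanned 0.92 to 2.52 in mTEChi against mTEClo and -2.60 to -0.52 in mTEC against cTEC. Chga spanned 0.68 to 1.34 and -0.01 to 1.10 there, and -0.10 to 0.27 between the DC. Casr in mTEC against cTEC spanned 0.93 to 1.25. Over 5 populations, Pth spanned -0.46 to 0.79 at 3 months and 0.87 to 1.83 at 6 months, and Chga -0.12 to 0.55 at 3 months.
From 1 to 3 months, cTEC spanned -1.87 to 4.36 for Pth, -0.03 to 3.31 for Chga and -0.42 to 0.54 for Casr, and Casr in mTEClo -0.16 to 0.42. In mTEChi Pth spanned -0.17 to 0.53 and Chga -0.53 to 0.17, and Pth spanned -0.55 to 0.10 in Sirpa- and -0.27 to 0.16 in Sirpa+ DC. From 1 to 6 months, Pth and Chga spanned -0.30 to 4.48 and -0.30 to 1.67 in mTEClo, -0.06 to 0.64 and -0.23 to 0.44 in mTEChi, and -0.17 to 2.53 and -0.02 to 1.09 in Sirpa- DC, and Pth -0.38 to 0.05 in Sirpa+ DC. Between neighbours, Pth spanned -1.74 to 0.34 in mTEChi against cTEC and -1.15 to 0.45 in Sirpa- DC against mTEClo, Chga -0.51 to 0.60 in mTEClo against cTEC, and Casr -0.04 to 0.28 in Sirpa+ DC against cTEC. Members called within populations by age numbered 1 to 2. Genes other than the members called in fibroblasts numbered 1060 to 3352 at 3 months, lowest without fibroblast replicate 2 of that age, and 2145 to 5698 at 6 months, lowest without replicate 2 of that age.

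A replicate block within age or over all ages changed no call of a member, with Pth in epithelium against DC at 2.00 and Casr over 5 populations at 6 months at -0.64. Same-numbered groups of an age had gaps correlated between -0.07 and 0.42 (17 of 45 above 0.1), so the numbers were not taken to pair the samples.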
